A study of Rattus norvegicus with 6 samples.

Results

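The 8 genes described here are commonly used as markers of liver sinusoidal endothelial cells and were followed through rat liver RNA, namely Stab1, Stab2, Lyve1, Kdr, Pecam1, Clec4g, Fcgr2b and Eng. The genes were chosen by name, and each was taken at the locus carrying its symbol. Of the 8 names, 7 were found among 33022 loci, of which 32158 carried a symbol. The comparison set was the 10201 of these that Cufflinks could estimate and whose level averaged 1 FPKM or more (FPKM, fragments per length of transcript and per library size). All 7 were among these 10201 loci. Pecam1 was not analysed here.

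The 6 libraries came from the liver of male, obesity-prone Sprague Dawley rats, with 1 library in each group. The study names the left lobe for the gradient fractions and gives no lobe for total RNA. The rats had eaten either the control diet (CD) or the Western diet (WD) for 2 weeks, and all were killed after a 16 h fast and 1 h of refeeding. From each diet there was total RNA, a light sucrose gradient fraction holding mRNAs with 3 or fewer ribosomes and a heavy fraction holding mRNAs with 4 or more. The RNA of 3 rats was pooled for each library, so the spread between rats cannot be seen, no test between diets was possible, and no p-value is given. Where the deposited values allowed the number of sequenced fragments behind a value to be inferred, a 95% interval for counting error is given in brackets. It compares 2 libraries, not 2 diets, and covers counting error only.

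Sinusoidal endothelial cells line the capillaries of the liver and differ from other endothelium in their open pores and in lacking a full basement membrane. They are the scavengers of the liver, taking up hyaluronan, collagen fragments, modified lipoproteins and small immune complexes from blood through a set of endocytic receptors. Stab1 and Stab2 encode the stabilins, large scavenger receptors of which stabilin-2 is the main hyaluronan clearance receptor. Lyve1 encodes a further hyaluronan receptor, Fcgr2b the inhibitory Fc receptor that removes immune complexes, and Clec4g the C-type lectin LSECtin. Kdr encodes VEGF receptor 2, and Eng encodes endoglin, a co-receptor for BMP9 and TGF-beta.

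The stabilins stood in the lower part of the marker group in total RNA. Stab1 (chr16:7222066-7250924, Rnor_6.0, as are all positions here) was at 6.63 FPKM in CD total RNA, 4.27 in WD total, 3.92 in CD light, 3.34 in WD light, 9.21 in CD heavy and 9.97 in WD heavy. Both heavy libraries were above the other 4 libraries. Stab2 (chr7:27369852-27552078) was at 7.08 FPKM in CD total, 7.40 in WD total, 6.04 in CD light, 7.14 in WD light, 14.1 in CD heavy and 15.0 in WD heavy. Its heavy libraries again stood above all others, and the 4 remaining libraries lay close together. For both stabilins the Cufflinks bounds of the heavy libraries overlapped those of the others. How many loci had both heavy values above the other 4 was not counted, but 35.9% had a heavy to light ratio above 1 in both diets. Kdr (chr14:34727622-34787183) was at 17.8 FPKM in CD total, 24.4 in WD total, 12.7 in CD light, 13.1 in WD light, 27.4 in CD heavy and 30.1 in WD heavy, the same order of fractions as the stabilins within each diet.

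Lyve1 and Eng had their lowest values in the heavy fraction. Lyve1 (chr1:175663265-175676699) was at 25.8 FPKM in CD total, 27.6 in WD total, 28.0 in CD light, 24.9 in WD light, 16.7 in CD heavy and 13.5 in WD heavy. Eng (chr3:11679529-11717485) was at 28.6 FPKM in CD total, 30.2 in WD total, 32.3 in CD light, 32.1 in WD light, 20.4 in CD heavy and 22.4 in WD heavy. For both genes the heavy values were below those of the other 4 libraries, while the Cufflinks bounds overlapped. How many loci had this order was not counted, but 34.1% had a heavy to light ratio below 1 in both diets. Fcgr2b (chr13:89327793-89433815) was at 73.2 FPKM in CD total, 93.4 in WD total, 70.7 in CD light, 43.3 in WD light, 44.9 in CD heavy and 35.9 in WD heavy. Here the WD light library was as low as the heavy libraries. The locus spans the same coordinates as that of Fcgr3a, another Fc receptor gene, which was listed at 2.83 to 7.09 FPKM, so fragments could have been divided between these genes.

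Clec4g (chr12:2273940-2277169) was at 2.75 FPKM in CD total, 11.5 in WD total, 2.01 in CD light, 11.1 in WD light, 6.48 in CD heavy and 4.22 in WD heavy. These values rest on very few fragments, inferred as 2, 8, 1, 12, 3 and 2 in the same order. By contrast, the inferred fragments per library were 21 to 52 for Stab1, 35 to 90 for Stab2, 29 to 122 for Lyve1 and 40 to 147 for Eng. No fragment numbers could be inferred for Kdr and Fcgr2b, and their values stand without an interval.

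**Figure D1:**
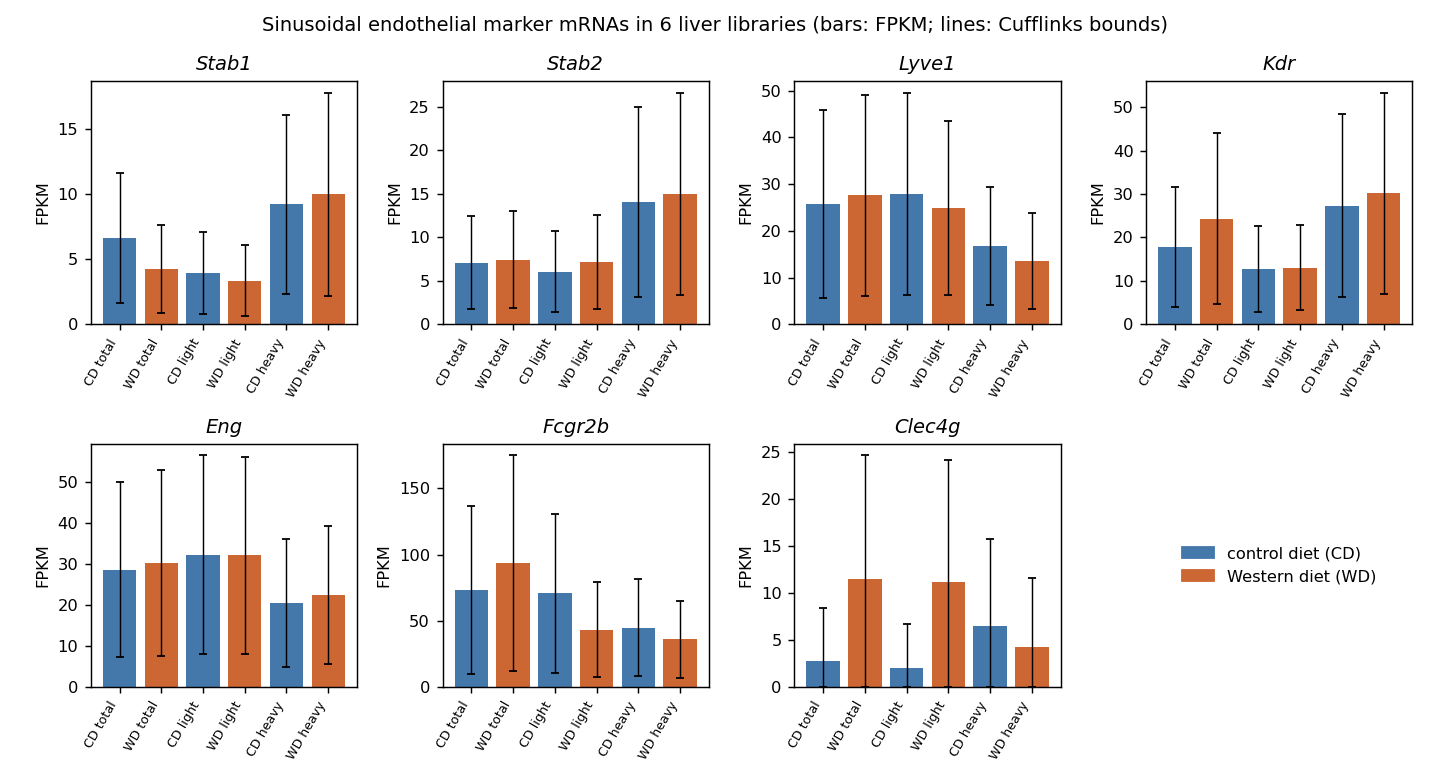
FPKM of the 7 marker genes in the 6 libraries, 1 panel a gene, each y axis starting at 0. Bars are the deposited FPKM of 1 library and lines span the lower and upper bounds given by Cufflinks; bars of the heavy fraction are the tallest for Stab1, Stab2 and Kdr and the shortest within each diet for Lyve1, Eng and Fcgr2b.

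Since FPKM is per length, levels can be ranked between genes within a library. Fcgr2b ranked 1st of the 7 in every library, from 35.9 FPKM in WD heavy to 93.4 in WD total, above 85.4% to 94.2% of the loci compared. Eng ranked 2nd and Lyve1 3rd in both total and both light libraries, and their Cufflinks bounds overlapped widely. In both heavy libraries Kdr took the 2nd place, ahead of Eng. Stab2 ranked above Lyve1 in WD heavy (15.0 against 13.5 FPKM) but not in CD heavy (14.1 against 16.7), and in neither library was the gap outside the Cufflinks bounds. The last place was held by Clec4g in CD total, CD light and both heavy libraries, and by Stab1 in WD total and WD light. Stab1 stood above 29.3% of loci in WD light and above 62.2% in WD heavy.

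Lyve1, Stab1 and Mrc1 are also made by some macrophages, Eng and Kdr by other endothelium and Fcgr2b by immune cells. The summed level of 14 Kupffer cell and macrophage markers ran from 162 to 341 FPKM over the 6 libraries, with Timd4 at 0. The 12 stellate cell markers found summed to 57.7 to 91.7 FPKM, with Col1a2 at 0. Of 5 cholangiocyte markers found, Krt7, Spp1 and Cftr were at 0 in every library and the sum stayed at or below 4.35 FPKM. Of 13 lymphocyte and other leukocyte markers, 6 were at 0 in every library, among them the T cell receptor chains Cd3d and Cd3g and the B cell receptor chain Cd79a, and the sum was 3.95 to 9.34 FPKM. Markers of red cell precursors summed to 27.5 to 105 FPKM in 5 libraries and to 545 in WD light. Hepatocyte markers summed to between 48693 and 146502 FPKM, against 131 to 199 FPKM for the 7 sinusoidal markers. In these bulk samples fewer cells of a type and less RNA per cell cannot be told apart, and the part of macrophages or other endothelium in the marker levels was not tested.

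The first comparison asked how each mRNA was divided between the heavy and the light fraction of the same liver pool. FPKM is scaled within each library, so the heavy to light ratio compares relative levels in 2 libraries and not numbers of mRNA molecules. The markers split into a group above 1 and a group below 1. In CD, the ratio was 2.35 for Stab1 [1.38 to 4.15], 2.33 for Stab2 [1.54 to 3.59] and 2.15 for Kdr. In WD, it was 2.98 for Stab1 [1.93 to 4.65], 2.10 for Stab2 [1.54 to 2.87] and 2.31 for Kdr. Thus 3 of 7 markers were at a ratio of at least 1.5 in both diets, beside 19.6% of all loci compared.

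Lyve1, Eng and Fcgr2b lay on the other side. Lyve1 had a heavy to light ratio of 0.597 in CD [0.383 to 0.916] and 0.542 in WD [0.348 to 0.818]. Eng had 0.632 in CD [0.416 to 0.947] and 0.698 in WD [0.488 to 0.981]. Fcgr2b had 0.635 in CD and 0.830 in WD. Lyve1 and Eng were thus at or below 0.75 in both diets, 2 of 7 markers beside 24.2% of all loci compared. In both diets 3 of 7 markers were above 1 (35.9% of all loci) and 3 of 7 below 1 (34.1% of all loci), so the counts themselves were near the background. Clec4g changed sides, from 3.22 in CD [0.259 to 169] to 0.380 in WD [0.0413 to 1.71], with both intervals spanning 1.

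In CD alone, 4 of 7 markers had a heavy to light ratio above 1 and 3 below (50.2% and 46.2% of all loci), and in WD 3 were above and 4 below (48.5% and 50.0%). In CD, 4 markers were at a heavy to light ratio of at least 1.5 (32.9% of all loci) and 3 at or below 0.75 (36.6%). In WD, 3 were at or above 1.5 (31.4%) and 3 at or below 0.75 (38.5%). Among the 5 markers with fragment numbers, the counting interval lay above 1 for Stab1 and Stab2 in both diets, beside 15.9% of loci with an interval in CD and 19.7% in WD. It lay below 1 for Lyve1 and Eng in both diets, beside 13.7% of such loci in CD and 17.5% in WD. With all libraries brought to one common sum over loci with a symbol, a rescaling, the WD ratios of all loci were higher by a median of 0.26 on the log2 scale, and those of the markers moved with them. The WD ratio of Fcgr2b then crossed to a log2 value of 0.039, and the upper bounds of Lyve1 and Eng moved to 1.01 and 1.21. Set against the all-loci median, Fcgr2b (-0.22), Eng (-0.47) and Lyve1 (-0.83) were still lower and Stab2 (1.11), Kdr (1.25) and Stab1 (1.59) still higher, on the log2 scale.

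**Figure D2:**
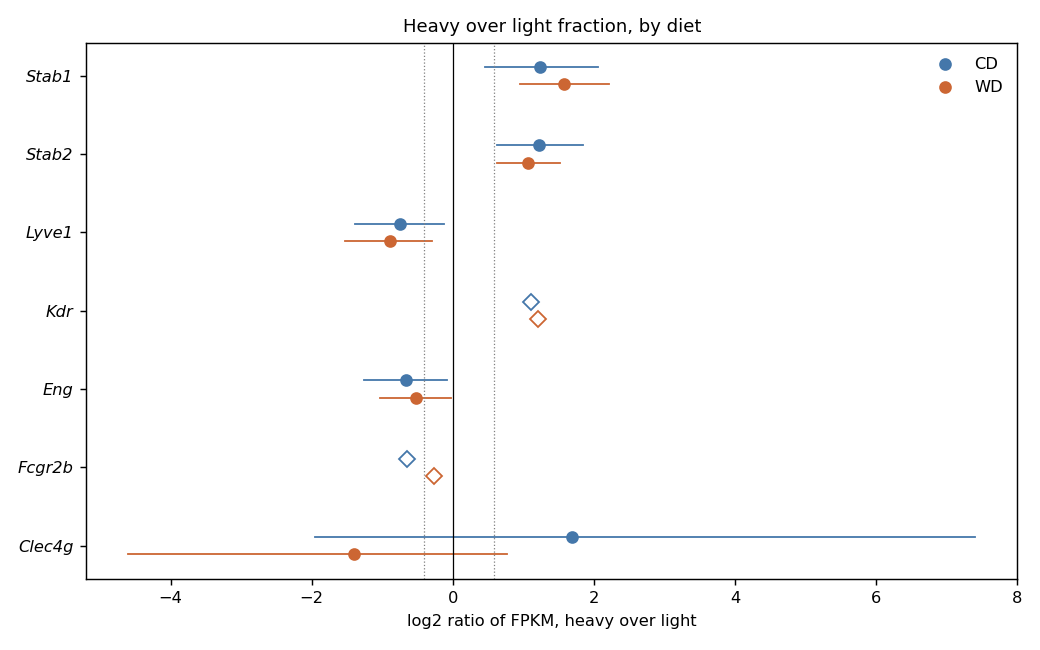
Heavy over light ratio of FPKM on a log2 scale for the 7 marker genes, CD in blue and WD in orange. Filled circles carry 95% counting intervals, open diamonds (Kdr, Fcgr2b) have none, and dotted lines mark ratios of 0.75 and 1.5; Stab1, Stab2 and Kdr lie to the right of 0 and Lyve1, Eng and Fcgr2b to the left in both diets.

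A contrast of 2 markers within the same pair of libraries does not depend on how the libraries were scaled. All 10 pairs of the 5 markers with fragment numbers were compared. In CD, the heavy to light ratio of Stab1 was 3.94 times that of Lyve1 [1.94 to 8.09] and 3.72 times that of Eng [1.86 to 7.52]. Stab2 stood 3.91 times above Lyve1 [2.12 to 7.24] and 3.69 times above Eng [2.03 to 6.72]. These 4 of 10 pairs were the ones whose interval excluded 1, and they were 4 of the 6 pairs without Clec4g. Among all pairs of loci with at least 1 fragment in each fraction library 28.3% excluded 1 in CD, and among pairs of the 1525 loci with at least 20 fragments in each 55.1% did, so 4 of 6 deeper pairs is near the background of loci of like depth. Stab1 against Stab2 gave 1.01 [0.501 to 2.06], and Lyve1 against Eng gave 0.944 [0.514 to 1.73].

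In the WD libraries, which came from other rats, the same 4 contrasts excluded 1, beside 36.8% of all pairs and 63.2% of the deeper pairs. In the same direction in both diets, 17.6% of all pairs and 42.3% of the deeper pairs did so. Stab1 was 5.50 times above Lyve1 [2.96 to 10.3] and 4.27 times above Eng [2.42 to 7.55]. Stab2 was 3.88 times above Lyve1 [2.29 to 6.66] and 3.01 times above Eng [1.88 to 4.84]. In WD, 2 further pairs excluded 1, with Stab1 at 7.85 times [1.58 to 74.9] and Stab2 at 5.53 times [1.17 to 52.0] the ratio of Clec4g, which had 2 fragments in WD heavy. Stab1 against Stab2 was 1.42 [0.823 to 2.45] and Lyve1 against Eng 0.777 [0.441 to 1.35], intervals that do not show the members of either pair to be alike.

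The same split can be put as a share. Of the summed FPKM of both fractions, the heavy fraction held 70.2% of Stab1 in CD and 74.9% in WD. The shares were 70.0% and 67.8% for Stab2, and 68.3% and 69.8% for Kdr. They were lower for Lyve1 (37.4% and 35.1%), Eng (38.7% and 41.1%) and Fcgr2b (38.8% and 45.3%). Against total RNA, Stab2 in the heavy fraction was at 1.99 times its total level in CD and 2.03 times in WD. Lyve1 in the heavy fraction was at 0.647 times its total level in CD and 0.489 times in WD. Light fraction levels of Eng and Lyve1 were between 0.902 and 1.13 times the total level.

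Correlations of log2 levels over the 6 libraries restate these fraction values, since 4 of the libraries are the fractions themselves, and are given as a description. Stab1 correlated with Stab2 (r = 0.87) and Kdr (r = 0.81), and Stab2 with Kdr (r = 0.84). Lyve1 correlated with Eng (r = 0.90) and Fcgr2b (r = 0.81), while Eng with Fcgr2b gave 0.59. Across the groups, r was -0.97 for Stab2 with Lyve1, -0.96 for Stab2 with Eng and -0.93 for Stab1 with Eng, but -0.48 for Stab1 with Fcgr2b and -0.25 for Kdr with Fcgr2b, so that Fcgr2b followed the groups less closely. Clec4g had an r between -0.23 and 0.23 with every other marker.

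Of 15 other sinusoidal endothelial genes compared, 4 were above 1 in both diets, 6 below 1 in both and 5 on opposite sides, near the shares of all loci (35.9%, 34.1% and 25.9%). Mrc1, the endocytic mannose receptor of these cells, was at 16.9 and 18.0 FPKM in total RNA, 10.4 and 9.12 in the light and 20.2 and 20.3 in the heavy fraction of CD and WD. Its heavy to light ratio was 1.94 in CD [1.31 to 2.91] and 2.22 in WD [1.60 to 3.09], on the side of the stabilins. Bmp2, a ligand by which these cells control hepcidin in hepatocytes, was at 0.134 in CD [0.0259 to 0.442] and 0.0912 in WD [0.00222 to 0.557], with 3 and 1 fragments in the heavy libraries. Oit3 had the highest ratio of the list in WD (2.61) and Thbd, encoding thrombomodulin, in CD (4.30 [0.857 to 41.5]). Wnt2, a ligand made by sinusoidal cells around the central vein, was listed at 0 in both heavy libraries.

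Among 23 general endothelial genes, 10 were above 1 in both diets, 7 below 1 in both and 6 on opposite sides, again near the shares of all loci (35.9%, 34.1% and 25.9%). Adgrf5, an adhesion receptor, had heavy to light ratios of 1.68 in CD [1.21 to 2.35] and 1.69 in WD [1.30 to 2.19]. S1pr1, the sphingosine 1-phosphate receptor, had ratios of 0.409 [0.215 to 0.743] and 0.253 [0.135 to 0.441]. Erg, an endothelial transcription factor, was listed at 0 in both heavy libraries. Plvap had the highest value in CD, where it was listed at 0 in the light library, and Emcn the highest in WD (6.84 [0.549 to 359], on 1 fragment in WD light). Between diets, the log2 ratios correlated with r = 0.42 and rho = 0.21 over the 7 markers, r = 0.81 and rho = 0.77 over the 15 other sinusoidal genes, and r = 0.35 and rho = 0.21 over the 23 general endothelial genes. Over all 10201 loci, r was 0.37 and rho 0.54. Genes are not independent replicates, and the 2 diets share no library.

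**Figure D3:**
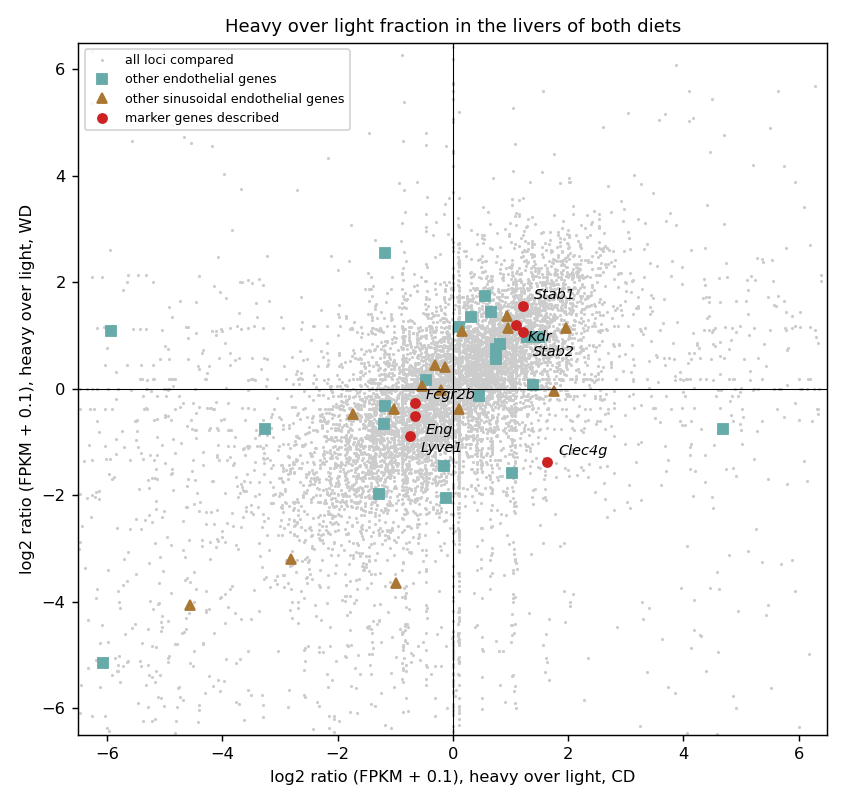
Log2 heavy over light ratio (FPKM + 0.1) in CD on the x axis and WD on the y axis for all loci compared (grey), 23 other endothelial genes (squares), 15 other sinusoidal endothelial genes (triangles) and the 7 markers (red circles, named). Stab1, Stab2 and Kdr lie in the upper right, Lyve1, Eng and Fcgr2b in the lower left, and Clec4g in the lower right; 377 of 10201 loci lie outside the axes.

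The second comparison asked whether mRNA abundance differed between the WD and the CD library of total RNA. For 6 of 7 markers the WD value was higher and for 1 lower, beside 51.1% and 47.0% of all loci. The median log2 change of the markers was 0.10, and that of all loci 0.02. Stab2 was at a ratio of 1.05 [0.719 to 1.52], Lyve1 at 1.07 [0.784 to 1.46] and Eng at 1.06 [0.779 to 1.44], differences within counting error. Stab1 was lower in WD, at a ratio of 0.643 [0.401 to 1.02], with 52 fragments in CD and 32 in WD. It was the only marker at or below 0.75, beside 22.7% of all loci. The contrast of Stab1 with Stab2 in total RNA was 0.615 [0.335 to 1.13], so these libraries do not separate the changes of the stabilins. Of the 10 pairs of markers with fragment numbers, 1 excluded 1 in total RNA. It was Stab1 against Clec4g at 0.154 [0.0153 to 0.854], where Clec4g had 2 fragments in CD and 8 in WD. In the light and heavy fractions 0 of 10 did so. The share among all pairs of loci was not counted for these changes.

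Kdr was at 1.37 and Fcgr2b at 1.28, without an interval. Clec4g was at 4.18 [0.835 to 40.4], the only marker at or above 1.5, beside 17.7% of all loci. No counting interval of the 5 markers excluded 1 in total RNA, beside 3.51% of loci with an interval above and 3.67% below 1. The 5 markers with fragment numbers leave out Kdr and Fcgr2b. Summed over these 5, 287 fragments in CD total and 276 in WD total gave a ratio of 1.01 [0.849 to 1.19]. The summed FPKM of all 7 markers, of which Fcgr2b was the highest, was 1.23 times that of CD. By this measure the other sinusoidal endothelial genes were at 1.22 and the stellate cell markers at 1.20. The general endothelial genes were at 0.896 and the hepatocyte markers at 0.925. Of the 13 Kupffer cell and macrophage markers compared, 11 were higher in WD total RNA and 5 were at 1.5 or more. The shares of all loci were 51.1% and 17.7%. On the log2 scale, Cd68 was the highest at 1.27 and C1qb the lowest at -0.92. The summed level of this list was 1.28 times that of CD, and its part in the levels of Fcgr2b, Lyve1 and Stab1 was not tested.

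In the light fraction, 3 of 7 markers were higher in WD and 4 lower, beside 51.0% and 47.2% of all loci. The ratios were 0.854 for Stab1 [0.490 to 1.53], 1.18 for Stab2 [0.792 to 1.80], 0.891 for Lyve1 [0.652 to 1.23], 0.994 for Eng [0.741 to 1.35] and 1.03 for Kdr. Fcgr2b was lower at 0.613, the only marker at or below 0.75 (26.8% of all loci). Clec4g was at 5.52 [0.817 to 236], the only one at or above 1.5 (25.9% of all loci). No counting interval of the 5 markers excluded 1, beside 8.31% of loci with an interval above and 9.37% below 1. The same rescaling lowered the light fraction change of all loci by 0.31 on the log2 scale, and Stab2 and Kdr then turned to -0.11 and -0.31. The interval of Lyve1 then excluded 1 [0.510 to 0.960], at a log2 change of -0.52, or -0.23 set against the all-loci median. Set against the all-loci median, Stab2 was at 0.18 and Kdr at -0.02. The WD light library also held the high level of red cell precursor markers given above.

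In the heavy fraction, 4 of 7 markers were higher in WD and 3 lower, beside 45.1% and 50.4% of all loci. Stab1 was at 1.08 [0.712 to 1.65], Stab2 at 1.07 [0.772 to 1.48], Kdr at 1.10 and Eng at 1.10 [0.701 to 1.73]. Lyve1 was at 0.809 [0.477 to 1.36] and Fcgr2b at 0.801. None of the 7 was at or above 1.5 (21.7% of all loci), and Clec4g alone was at or below 0.75 (25.8% of all loci), at 0.651 [0.0544 to 5.68]. No counting interval of the 5 excluded 1, beside 3.34% of loci with an interval above and 4.1% below 1. Summed over the 5 markers with fragment numbers, the WD to CD ratio was 1.00 [0.842 to 1.20] in the light and 1.03 [0.841 to 1.25] in the heavy fraction.

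**Figure D4:**
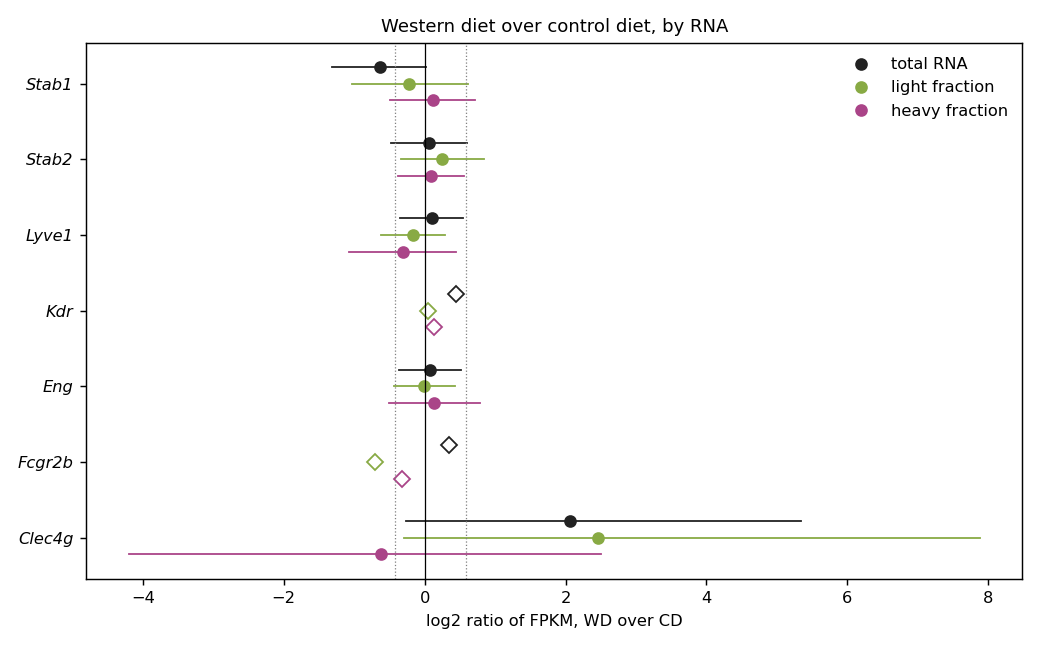
WD over CD ratio of FPKM on a log2 scale for the 7 marker genes in total RNA (black), the light fraction (green) and the heavy fraction (purple). Circles carry 95% counting intervals, open diamonds have none, and dotted lines mark ratios of 0.75 and 1.5; every interval spans 0, and those of Clec4g are the widest.

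The last comparison asked whether ribosome density, the heavy to light ratio in WD over that in CD, differed between diets. It was 1.27 for Stab1 [0.615 to 2.58], 0.902 for Stab2 [0.529 to 1.53], 0.908 for Lyve1 [0.488 to 1.69], 1.10 for Eng [0.641 to 1.91], 1.07 for Kdr and 1.31 for Fcgr2b. Apart from Clec4g, the density ratios lay between 0.902 and 1.31. They depended on the fraction used as the base. When the heavy fraction was set over total RNA instead, the log2 change went from 0.39 to -0.67 for Fcgr2b, from 0.10 to -0.31 for Kdr, from -0.15 to 0.03 for Stab2 and from 0.33 to 0.74 for Stab1. Clec4g was at 0.118 [0.00208 to 2.82], the only marker at or below 0.75, beside 36.1% of all loci, and none was at or above 1.5, beside 27.7%. With the same cuts set on CD over WD, Clec4g was again the only marker at or above 1.5 (30.9% of all loci) and none was at or below 0.75 (32.9%). In all, 4 markers were higher and 3 lower (48.3% and 50.7% of all loci). No interval excluded 1, while 5.59% of loci with an interval lay above 1 and 4.43% below. The summed fragments gave 1.02 [0.782 to 1.34]. The rescaling raised the density change of all loci by 0.30 on the log2 scale, and Stab2 and Lyve1 then turned to 0.18 and 0.19, or -0.10 and -0.09 set against the all-loci median.

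The partners of Kdr were taken as a list of 11 VEGF ligands, receptors and signalling proteins, of which 7 were compared, Flt1 and Flt4 being also in the endothelial lists. In total RNA all 7 were lower in WD, beside 47.0% of all loci. The median log2 change of the 7 was -0.28, beside 0.02 for all loci. The lowest was the locus named Vegfa, after the main ligand of this receptor, at a log2 change of -0.92 (3722 FPKM in CD and 1961 in WD), and the highest Flt4, VEGF receptor 3, at -0.11. The Vegfa locus ran from 177 to 3722 FPKM over the libraries, against 1.34 to 16.1 FPKM for the other 6 genes. Whether its fragments came from Vegfa mRNA was not tested. Its values are not read as levels of that mRNA, though the counts over the 7 include it. Without that locus, Flt1, the decoy receptor for Vegfa, was the lowest at 0.653 [0.354 to 1.18] and Plcg1, phospholipase C gamma, at 0.891 [0.604 to 1.31]. In the heavy fraction 6 of the 7 were higher in WD (45.1% of all loci), among them Flt1, the highest, at 1.67 [0.607 to 5.02]. In ribosome density 6 were higher (48.3% of all loci). The doubtful Vegfa locus (log2 2.33) stood ahead of Nrp2 (1.54), a VEGF co-receptor, and Vegfc was at the bottom (-1.60).

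The partners of Eng in BMP9 and TGF-beta signalling showed no common direction. Of 17 compared, 8 were higher and 9 lower in WD total RNA (51.1% and 47.0% of all loci), with a median log2 change of -0.18. Acvrl1, the BMP9 receptor ALK1, was lowest at -0.88 and Smad5, a signal transducer of this receptor, highest at 0.72. Smad1, its close relative, was at 0.564 [0.376 to 0.835], with 76 fragments in CD and 41 in WD. Gdf2, which encodes BMP9, was at 0.880 [0.423 to 1.81]. In the heavy fraction Id3, a target of this pathway, was at 0.385 [0.239 to 0.604], with 71 fragments in CD and 28 in WD. Smad1 and Id3 were named after their values were seen, and intervals of this list that exclude 1 were not counted. Of all loci with an interval, 3.67% lay below 1 in total RNA and 4.1% in the heavy fraction. Tgfbr2, the type II TGF-beta receptor, had heavy to light ratios of 0.971 [0.727 to 1.30] in CD and 1.02 [0.797 to 1.30] in WD, between those of the stabilins and endoglin.

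Genes linked to hyaluronan, the ligand of Stab2 and Lyve1, had total RNA levels that were close between diets. Of 8 compared, 4 were higher and 4 lower in WD (51.1% and 47.0% of all loci), with a median log2 change of 0.0039. The lowest was Ambp (-0.04), the precursor of bikunin, and the highest Tmem2 (0.34), a cell surface hyaluronidase. Has1, a hyaluronan synthase, was at 0 in every library. In CD 7 of the 8 and in WD all 8 had a heavy to light ratio above 1, beside 50.2% and 48.5% of all loci. Itih2, a hepatocyte gene for a protein that binds hyaluronan, was highest in both diets, at 5.66 in CD [4.91 to 6.55] and 4.04 in WD [3.67 to 4.45]. Hepatocyte markers as a list showed a median log2 heavy to light ratio of 1.24 in CD and 1.12 in WD, above that of all loci (0.01 and 0.00).

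The remaining sinusoidal and general endothelial genes gave no common direction between diets in total RNA. Among all loci, 51.1% were higher and 47.0% lower in WD. Of the 15 other sinusoidal genes, 6 were higher and 9 lower in WD, with a median log2 change of -0.12. Dnase1l3, a secreted nuclease, was highest at 1.54 [0.798 to 3.03] and Thbd lowest at 0.465 [0.105 to 1.66]. In the heavy fraction, Gpr182, a chemokine scavenging receptor, was at 5.72 FPKM in CD and 0.797 in WD, the lowest log2 change of the list at -2.70, and Adam23 the highest at 1.04. The WD value of Gpr182 was thus below 1 FPKM, and no interval is given for its change. Ehd3, a protein of endocytic recycling, was at 1.66 [1.04 to 2.70] in the heavy fraction, with 30 fragments in CD and 51 in WD. Ehd3 was named after its value was seen, and intervals of this list that exclude 1 were not counted. In the heavy fraction 3.34% of all loci with an interval lay above 1. Of the 23 general endothelial genes, 9 were higher and 14 lower in WD total RNA, with a median log2 change of -0.13, from Erg (-1.13) to Icam2 (1.93, with 1 fragment in CD and 4 in WD).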

How the data were processed

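Total RNA and light and heavy polysome fractions of rat liver were sequenced in 6 libraries. Per the study's methods, the authors depleted ribosomal RNA, mapped the reads with TopHat (genome Rnor_6.0) and ran Cufflinks, Cuffmerge and Cuffnorm (Cufflinks 2.2.1). What they deposited is 1 FPKM value per locus and library, normalized between libraries, with a lower and an upper bound. The annotation is not given in the sources used here.

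Values were analysed with Python 3.11.15, pandas 2.3.3, numpy 2.4.6 and scipy 1.17.1, and plotted with matplotlib 3.10.9. A printed ratio is of FPKM as deposited. Counts of genes past a ratio of 1, 1.5 or 0.75, and the matching shares of loci, used FPKM with 0.1 added. Counts of intervals used fragment numbers. A log2 change was computed after adding 0.1 FPKM to each deposited value, which understates changes of low genes. Loci were compared where they carried a symbol, were estimated by Cufflinks in all 6 libraries and averaged 1 FPKM or more. The cuts of 1.5 and 0.75 were taken from the study, which set them on ribosome density in CD over WD. Here they were applied to WD over CD and to the other comparisons too, so counts past them are not at the study's thresholds. Loci with a symbol summed to 616030 to 866676 FPKM per library.

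Fragment numbers were inferred as the whole numbers (within 0.02) that fit a gene's 6 values given a common factor for each library, and were checked against the Cufflinks bounds. They were found for 70.4% of 13283 genes above 0 in 2 or more libraries, and for 8.75% after the values were jittered by 1%. They are estimates, and 6891 of the 10201 loci compared had them. Over loci with such numbers only, they give 199991 to 417679 fragments per library, which is not the full depth. Their median was 9 to 23 per library over the loci compared that had them. In a simulation of 6891 genes, of which 6863 were above 0 in 2 or more libraries, numbers came back for 99.5% of the latter and were the true ones for 98.4% of those. Of 200 genes planted with a 4-fold change, 99.5% were recovered for abundance and 99.0% for ribosome density. Changes were planted only in genes with higher fragment numbers, and recovery was judged on the ratio alone, without an interval. These shares were thus not shown for genes with few fragments. Clec4g, at a WD to CD ratio of 4.18 in total RNA on 8 against 2 fragments, had an interval of 0.835 to 40.4, which spans 1. Intervals of a ratio of 2 libraries are exact Clopper-Pearson intervals. Those of ribosome density and of 2 genes are exact intervals of a conditional odds ratio. Intervals cover counting error only, since reads carry no molecular identifiers and rats were pooled.

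The markers and gene lists were chosen with earlier results of these data known. All markers are named. From each other list the genes with the highest and the lowest change were to be named, with the defining markers of other cell types (of the stellate list only the abundance extremes, and of the remaining cell type lists only sums and genes at 0, are given), and the 3 genes with a mean of at least 10 FPKM whose profile was most like the mean of the markers. Further genes of the lists were named after their values were seen, for their higher fragment numbers or their role. Alternatives were other pseudocounts (1 and 0.01 FPKM), other filters (none, and a mean of at least 10 FPKM), rescaling, centring, heavy fraction over total RNA and, chosen after seeing the data, the cuts on CD over WD. For all pairs of loci, the contrast of 2 genes used an approximate interval of the log odds ratio, which gave the same call as the exact interval for all 20 marker contrasts.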

Additional observations from a re-analysis of the deposited data

Results flagged for a closer look

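Clec4g was flagged because its WD to CD change pointed in opposite directions in different RNA of the same livers. On the log2 scale it was 2.03 in total RNA and 2.41 in the light fraction, but -0.61 in the heavy fraction. The difference between these changes was not tested, since each group is 1 library. The 3 changes rest on 8 against 2, 12 against 1 and 2 against 3 fragments, and each counting interval spanned a ratio of 1. Opposite signs were not particular to Clec4g. Fcgr2b was at 0.35 in total RNA, -0.70 in the light and -0.32 in the heavy fraction. The sign also differed between RNAs for Stab1, Lyve1 and Eng, and only Stab2 and Kdr kept it. Clec4g had the largest changes in total RNA and the light fraction.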

How the results depend on the processing

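No paired analysis was possible because each group holds 1 library. With 1 library of pooled rats per group, no value here has an error between rats, and the medians over 7 markers describe a divided group. Of 55 alternative medians, 46 kept their sign and 47 moved by less than the counting error of the summed markers. Of 343 alternative values of single markers, 335 kept their sign, and the 8 others came from rescaling or from heavy fraction over total RNA. Many of the 335 could not have changed. Other filters and leaving out genes only drop markers, so the values of those kept stay the same. The count therefore overstates how stable the values are. Where only the 4 markers with a mean of at least 10 FPKM were kept, which leaves out both stabilins and Clec4g, the median log2 heavy to light ratio in CD reversed from 1.10 to -0.66. The markers at a ratio of at least 1.5 then numbered 0 rather than 1 for abundance and for the light fraction, 1 rather than 4 for heavy to light in CD and 1 rather than 3 in WD. Those at or below 0.75 numbered 0 rather than 1 for abundance, the heavy fraction and ribosome density.

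With libraries rescaled to the same sum, the median light fraction change moved from -0.01 to -0.36, with 3 rather than 1 at or below 0.75. Ribosome density then had 2 rather than 0 at or above 1.5, and the median heavy to light ratio in WD moved from -0.27 to 0.039. With heavy fraction over total RNA in place of heavy over light, the median ribosome density change moved from 0.10 to -0.31, with 1 rather than 0 at or above 1.5 and 2 rather than 1 at or below 0.75. The cause was not tested.

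Leaving out genes was chosen after seeing the data. Without Fcgr2b, or with only the markers that have fragment numbers, 0 markers were at or below 0.75 in the light fraction, and the median heavy to light ratio in WD was 0.27 or -0.52. Without Clec4g, 0 markers were at or above 1.5 for abundance or the light fraction, 0 were at or below 0.75 for the heavy fraction or ribosome density, and the median heavy to light ratio was 0.22 in CD and 0.40 in WD. Depth limits Clec4g most, and no interval can be had for Kdr and Fcgr2b.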

Other observations

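The 3 genes whose log2 level over the 6 libraries was most like the mean of the 7 markers were Tmem2 (r = 0.97), RT1-Da (r = 0.96) and Lrrc8d (r = 0.94), out of 3801 candidates with a mean of at least 10 FPKM, of which 7 had an r over 0.9. Tmem2, the hyaluronidase named among the genes linked to hyaluronan, was at 12.3 FPKM in CD total and 15.6 in WD total. It was at 10.9 in CD light, 12.9 in WD light, 15.3 in CD heavy and 13.8 in WD heavy. RT1-Da, a class II histocompatibility gene of antigen presenting cells, was at 19.4 FPKM in CD total and 36.9 in WD total, and between 12.9 and 25.7 in the fractions. Lrrc8d, a subunit of volume regulated anion channels, lay between 12.2 and 15.5 FPKM. Clec4g, 1 of the 7 markers in that mean, rests on 1 to 12 fragments. It varied most of the 7, by 5.72-fold over the libraries, ahead of Stab1 at 2.98-fold, and so weighs heavily in the mean. Other markers ran in opposite directions, such as Stab2 and Lyve1 (r = -0.97). Likeness to the mean is thus not likeness to the single markers, and it describes these libraries only.

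Extremes of the other gene lists, on the log2 scale, completed the picture of single genes. Among the other sinusoidal genes, the WD to CD change in the light fraction ran from Rspo3 (-1.08), a Wnt potentiator, to F8 (1.44), coagulation factor VIII, and that of ribosome density from Gpr182 (-2.67) to Maf (1.26), a transcription factor. The value of Gpr182 includes its WD heavy level of below 1 FPKM. Among general endothelial genes, Emcn, endomucin, was lowest in the light fraction at -3.20, on 5 fragments in CD and 1 in WD, and Sparcl1 was lowest in the heavy fraction at -2.16, on 5 and 1. Plvap was highest in the light fraction and lowest in ribosome density, and Klf2, a flow-responsive transcription factor, highest in the heavy fraction and in ribosome density, but Plvap was listed at 0 in CD light and Klf2 at 0 in CD heavy, so no fold is given.

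Among the VEGF partners, light fraction changes ran from Nrp2 (-0.88) to Vegfc (1.57), and Vegfc was lowest in the heavy fraction at -0.03. The heavy to light ratio ran from Nrp2 (-1.49) to Plcg1 (0.33) in CD and from Vegfc (-2.06) to Plcg1 (0.90) in WD. These ranges leave out the Vegfa locus, whose fragments were not traced to Vegfa mRNA and which lay at -2.23 in the light fraction and at 0.50 and 2.83 for heavy to light in CD and WD. Among the partners of Eng, Id1 was lowest in the light fraction (-1.99) and had the highest heavy to light ratio in WD (2.05), on 1 to 3 fragments per library. The other extremes of that list were Bmp10, Tgfb1 and Smad6, each listed at 0 in a library concerned. Among hyaluronan genes, light fraction changes ran from Hyal2 (-1.46) to Itih3 (1.65), heavy fraction changes from Hyal1 (-1.24) to Itih4 (0.39) and ribosome density changes from Itih3 (-1.49) to Hyal2 (1.19). The lowest heavy to light ratios were those of Hyal2 in CD (-0.10) and Tmem2 in WD (0.09).

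Kupffer cell and macrophage markers had a median log2 heavy to light ratio of 0.90 in CD and 0.60 in WD. It ran from Vsig4 (-2.60) to Clec4f (2.55) in CD and from C1qc (-1.26) to Lyz2 (3.55) in WD. Their light fraction change ran from Lyz2 (-1.80) to Cd163 (2.40), their heavy fraction change from Adgre1 (-1.37) to Vsig4 (2.19) and their ribosome density change from Cd163 (-1.88) to Lyz2 (2.40). Of 9 stellate cell markers compared, 7 were higher in WD total RNA, beside 51.1% of all loci. The median log2 change of the 9 was 0.06, from Pdgfrb (-0.49) to Dcn (2.28).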
